A study of Mus musculus with 4 samples.

Results

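The genes described here encode the machinery that carries proteins into mitochondria. Members were chosen by symbol alone, as every probe set annotated to exactly 1 gene whose symbol begins with Timm or Tomm and a number, or is Samm50, Mtx1, Mtx2, Pam16, Dnlz, Grpel1, Grpel2, Pmpca or Pmpcb. This gave 65 probe sets for 32 genes, out of 45101 probe sets and 18193 genes with a probe set of their own. Of the 32 genes, 13 had 1 probe set and Tomm20 had the most, 6. RNA came from HL-1 cells, an immortal line of mouse atrial muscle cells that contracts in culture, grown in supplemented Claycomb medium on coverslips coated with gelatin and fibronectin. In the 2 stimulated samples the confluent cells were paced electrically for 24 h at 300 beats per minute, which per the labels was about 1.5 to 2 times the control rate. In the 2 control samples the confluent cells beat spontaneously and were not stimulated. No sample was paced at the control rate, so the faster rate and the electric field cannot be told apart. Each sample was hybridised to 1 Affymetrix array. The labels number the stimulated experiments but do not otherwise state that samples were separate cultures. A p-value here therefore reflects only the scatter among these 4 arrays, which may be technical in part.

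Most mitochondrial proteins are made in the cytosol and enter through the TOM complex of the outer membrane, whose receptors pass them to a channel. Proteins with an N-terminal presequence then cross the inner membrane through the TIM23 complex and are pulled into the matrix by a motor built on mitochondrial Hsp70, where a peptidase removes the presequence. Metabolite carriers are handed by small Tim chaperones of the intermembrane space to the TIM22 complex, and barrel proteins of the outer membrane are inserted by the SAM complex. Heart muscle cells are dense in mitochondria and depend on this import to maintain their respiratory chain.

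Across the whole series, arrays correlated over the genes tested at r = 0.989 within the stimulated samples and r = 0.992 within the controls, against 0.968 to 0.975 between groups. All 11 atrial muscle markers lay above the level filter described next, which 13058 of 18193 genes passed. Their levels differed widely. Myl7 read 13.45 and 13.72 on the stimulated arrays and 13.85 and 13.84 on the control arrays. Gja5 read 4.52 and 5.09 on the stimulated arrays and 6.81 and 7.60 on the control arrays. Of the changes of these 11 with stimulation 10 were below 0, with a median of -0.37, and both stimulated arrays lay below both controls for 9. Of all genes tested, 49.1% had a change above 0, 27.7% lay below both controls and 5.53% were called. Among the atrial markers Gja5 (-2.40), Tbx5 (-1.51) and Ryr2 (-0.85) were called lower and Nppa (2.00) was called higher (limma, adjusted p = 0.0228, 0.0269, 0.0419 and 0.00561). Of the markers of other cell types, 4 of 7 fibroblast genes, 1 of 5 endothelial genes, 3 of 4 smooth muscle genes and 4 of 5 leukocyte genes were above the filter. The pan-leukocyte gene Ptprc and the endothelial gene Pecam1 were below it, while the leukocyte genes Cd68, Csf1r, Lyz2 and Cd3e were above it. Among the markers of other cell types 1, Cd68, was called higher with stimulation (2.08 ± 0.23, limma, adjusted p = 0.0187). It read 6.34 and 6.59 on the stimulated arrays and 4.07 and 4.70 on the control arrays. Its control mean was just below the filter level, so Cd68 passed the filter only through the stimulated arrays. The smooth muscle marker Acta2 read 13.57 and 13.70 on the stimulated arrays and 13.65 and 13.74 on the control arrays, close to Myl7. Cnn1, another smooth muscle marker, read 10.63 and 11.15 on the stimulated arrays and 10.18 and 11.001 on the control arrays. The part of such markers in the import values was not tested, and in RNA from a whole culture a different level per cell and a different mix of cells cannot be told apart.

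No import gene passed the test for a difference between stimulated and control cells. Levels are deposited log2 values, each gene is represented by its probe set with the highest mean, and 30 of the 32 genes lay above the filter, a mean level of 4.39. Timm8a2 and Tomm20l lay below it and were not tested. With limma and Benjamini-Hochberg adjustment over all 13058 genes tested, 0 import genes were called higher and 0 lower at a threshold of 0.05, where 5.53% of all genes were called (3.91% higher and 1.62% lower). At an unadjusted p under 0.05 there were 7 import genes, or 23.3% of the 30, beside 25.6% of all genes. The median change over the 30 genes was -0.07, beside -0.01 over all genes, with 11 changes above 0 and 19 below, where 49.1% of all genes were above 0.

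The fitted changes, stimulated minus control on the log2 scale, ran from -0.52 for Timm22 to 0.56 for Tomm20. None of the 30 reached 1.5-fold in either direction, and all lay between the 5th and the 95th percentile of all genes tested, -0.57 and 0.71. Standard errors of the fit ran from 0.12 to 0.20. The 95% intervals of the 30 genes stayed between -0.87 and 0.91, and all but 7 of them included 0, so the missing calls do not show that the levels were equal. The stimulated arrays lay above both control arrays for 10 genes and below both for 10, while the arrays of the groups overlapped for the other 10. Among all genes tested, 27.6% lay above and 27.7% below, so that 55.3% did not overlap.

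**Figure D1:**
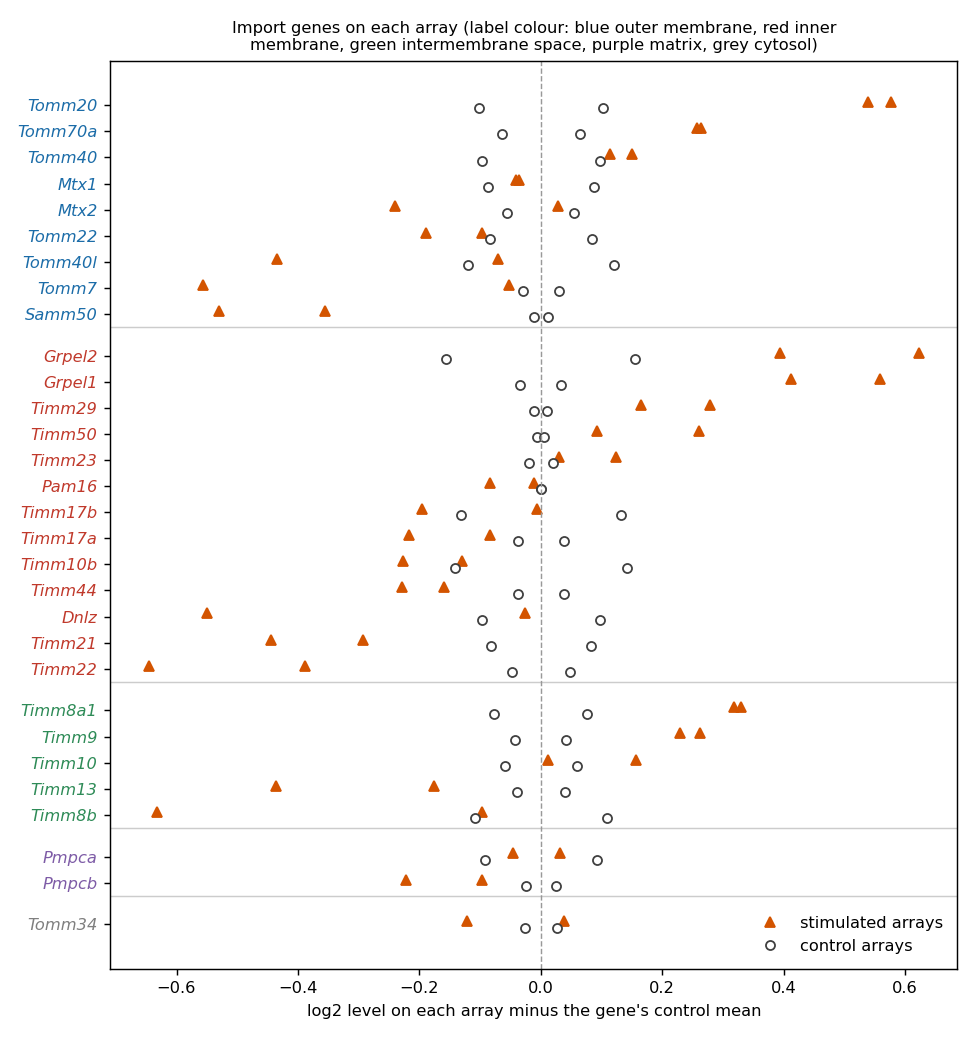
Log2 level of each of the 30 tested import genes on every array, minus the gene's control mean, with triangles for the 2 stimulated arrays and open circles for the 2 control arrays. Tomm20, Grpel1 and Grpel2 have both triangles to the right of both circles, Samm50, Timm21 and Timm22 have both to the left, and each compartment holds genes on both sides except the matrix and the cytosol.

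In the outer membrane, the receptor genes Tomm20 and Tomm70a gave the highest values relative to control. Tomm20, the receptor that recognises presequences, read 11.97 and 11.93 on the stimulated arrays, against 11.49 and 11.29 on the control arrays. Both stimulated arrays lay above both controls, by 0.56 ± 0.13 (SE) or 1.47-fold, the smallest p among the import genes (limma, adjusted p = 0.0675). Tomm20 passed the test in 2 limma fits that let the variance depend on the level, with adjusted p = 0.0422 and 0.0367 (robust fit), and in the fit with the replicate number as a block, with adjusted p = 0.0493. With any 1 array left out it did not pass (limma, adjusted p = 0.136 to 0.317).

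Tomm70a, the receptor for carrier precursors and a docking site for cytosolic chaperones, read 10.75 and 10.76 on the stimulated arrays, against 10.43 and 10.56 on the control arrays. The groups did not overlap, and the change was 0.26 ± 0.12 (limma, adjusted p = 0.257). Tomm22, the central receptor that also holds the complex together, read 10.36 and 10.27 on the stimulated arrays, against 10.54 and 10.37 on the control arrays, a change of -0.14 ± 0.13 (limma, adjusted p = 0.564). On the probe sets used, its direction was the opposite of that of Tomm20 and Tomm70a, with an interval from -0.46 to 0.18 that includes 0. The Tomm70a interval, -0.04 to 0.56, also includes 0. A second Tomm22 probe set, at a mean level of 9.19, gave -0.03 with overlapping groups. Differences between the receptors were not tested. Tomm20l, a paralog of Tomm20, read 4.003 and 3.97 on the stimulated arrays and 4.01 and 4.02 on the control arrays, below the filter in both groups.

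Genes of the channel lay on both sides of control, and those of the SAM complex near or below it. Tomm40, the barrel that forms the channel of the TOM complex, read 9.76 and 9.80 on the stimulated arrays, against 9.75 and 9.55 on the control arrays. Both stimulated arrays lay above both controls, 1 of them only just, a difference of 0.13 ± 0.13. Its paralog Tomm40l read 9.27 and 9.63 on the stimulated arrays, against 9.82 and 9.58 on the control arrays, a change of -0.25 ± 0.17 with overlapping groups. Neither passed (limma, adjusted p = 0.602 for Tomm40 and 0.429 for Tomm40l), and the difference between the paralogs was not tested.

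Samm50, the barrel of the SAM complex, read 10.75 and 10.93 on the stimulated arrays, against 11.29 and 11.27 on the control arrays. Both stimulated arrays were below both controls, a change of -0.44 ± 0.13, so that the control level was 1.36 times as high (limma, adjusted p = 0.100). Its partners, the metaxins, lay near 0, with Mtx1 at -0.04 ± 0.13 and Mtx2 at -0.11 ± 0.15, with overlap between groups for both. A second Mtx1 probe set gave -0.15, with both stimulated arrays below both controls. Tomm7, a small subunit that modulates assembly of the TOM complex, read 9.76 and 10.26 on the stimulated arrays, against 10.29 and 10.35 on the control arrays. Only the stimulated 1 array was clearly apart from the controls, and the change of -0.30 ± 0.19 did not pass (limma, adjusted p = 0.379). The other small subunits, Tomm5 and Tomm6, share their probe sets with a second symbol and are not analysed here.

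Genes of the import motor, which works at the inner face of the inner membrane, are counted here with that membrane. They include the matrix proteins Grpel1, Grpel2 and Dnlz. In this class, the nucleotide exchange factors of the motor gave the highest values and the TIM22 channel the lowest. Grpel1, which releases nucleotide from mitochondrial Hsp70, read 10.73 and 10.88 on the stimulated arrays, against 10.28 and 10.35 on the control arrays. The groups did not overlap, and the change was 0.49 ± 0.13 or 1.40-fold (limma, adjusted p = 0.0812). Grpel2, its paralog, read 9.50 and 9.27 on the stimulated arrays, against 9.03 and 8.72 on the control arrays, again without overlap, a change of 0.51 ± 0.16 or 1.42-fold (limma, adjusted p = 0.121). A second Grpel2 probe set, at a mean level of 5.72, gave -0.09.

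The other genes of the motor had changes below 0. Timm44, which tethers Hsp70 to the channel, read 9.54 and 9.47 on the stimulated arrays, against 9.66 and 9.73 on the control arrays, a change of -0.19 ± 0.12 without overlap. Pam16, a J-like regulator of the motor, stood at 11.07 and 11.15 on the stimulated arrays and at 11.16 on both control arrays, a change of -0.05 ± 0.12. Dnlz, a chaperone that keeps mitochondrial Hsp70 soluble, read 7.93 and 8.45 on the stimulated arrays, against 8.38 and 8.57 on the control arrays, and its groups overlapped (-0.29 ± 0.20). On the probe sets used, both exchange factors thus lay above control and the other motor genes near or below it, with a median of -0.05 over all 5. No motor gene was called, and the difference between these genes was not tested.

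Timm22, the carrier channel of the inner membrane, read 9.31 and 9.56 on the stimulated arrays, against 9.91 and 10.001 on the control arrays. Both stimulated arrays were below both controls, a change of -0.52 ± 0.14, so that the control level was 1.43 times as high (limma, adjusted p = 0.0897). Timm29, a metazoan subunit of the same complex, lay on the other side, at 9.88 and 9.77 on the stimulated arrays against 9.59 and 9.61 on the control arrays, a change of 0.22 ± 0.12 (limma, adjusted p = 0.325). Timm10b, a small Tim protein bound to this complex, gave -0.18 ± 0.15 with overlapping groups. Second probe sets gave -0.19 for Timm22, at a mean level of 5.27, and 0.07 for Timm29, at a mean level of 8.02. Groups overlapped on both of these.

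The 5 TIM23 genes gave -0.37 to 0.18, with a median of -0.10 and no call. Timm23, its channel, read 11.70 and 11.61 on the stimulated arrays, against 11.60 and 11.56 on the control arrays, a change of 0.08 ± 0.12. Timm50, the receptor on the intermembrane side, gave 0.18 ± 0.13, and both its stimulated arrays lay above both controls. Timm21, which contacts the TOM complex, read 7.83 and 7.98 on the stimulated arrays, against 8.19 and 8.36 on the control arrays, the lowest of the 5 at -0.37 ± 0.13 (limma, adjusted p = 0.160). The alternative channel subunits Timm17a and Timm17b gave -0.15 ± 0.13 and -0.10 ± 0.15. On the probe sets used, stimulated and control arrays were apart for Timm17a and overlapped for Timm17b, with intervals of -0.46 to 0.16 and -0.47 to 0.27. A second Timm17b probe set, at a mean level of 9.95, gave -0.35 with both stimulated arrays below both controls.

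The small Tim chaperones of the intermembrane space lay on both sides of control. Timm8a1, whose human counterpart is mutated in a deafness and dystonia syndrome, read 11.05 and 11.03 on the stimulated arrays, against 10.79 and 10.64 on the control arrays, without overlap (0.32 ± 0.13, limma, adjusted p = 0.179). Timm13, the partner of Timm8a1 in 1 hexamer, read 10.33 and 10.59 on the stimulated arrays, against 10.81 and 10.73 on the control arrays, also without overlap but lower (-0.31 ± 0.14, limma, adjusted p = 0.246). The partners of the main carrier chaperone, Timm9 and Timm10, gave 0.25 ± 0.12 and 0.08 ± 0.13, and the groups overlapped for Timm10 alone. Timm8b read 9.62 and 10.15 on the stimulated arrays, against 10.14 and 10.36 on the control arrays, and the difference between its stimulated arrays was larger than its change of -0.36 ± 0.20. Timm8a2, a paralog of Timm8a1, read 2.69 and 2.64 on the stimulated arrays and 2.84 and 2.81 on the control arrays, near the bottom of the measured range, where differences carry little.

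In the matrix, the processing peptidase that cuts off presequences showed no called change in either subunit. Pmpca, its alpha subunit, read 9.70 and 9.77 on the stimulated arrays, against 9.65 and 9.83 on the control arrays (-0.01 ± 0.13). Pmpcb, the catalytic beta subunit, read 11.62 and 11.75 on the stimulated arrays, against 11.82 and 11.87 on the control arrays (-0.16 ± 0.12), just below both controls. Second probe sets gave -0.19 for Pmpca, with both stimulated arrays below both controls, and 0.03 for Pmpcb, with overlap. Tomm34, a cytosolic cochaperone that binds Hsp70 and Hsp90 and is no subunit of the TOM complex, gave -0.04 ± 0.13 with overlapping groups.

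**Figure D2:**
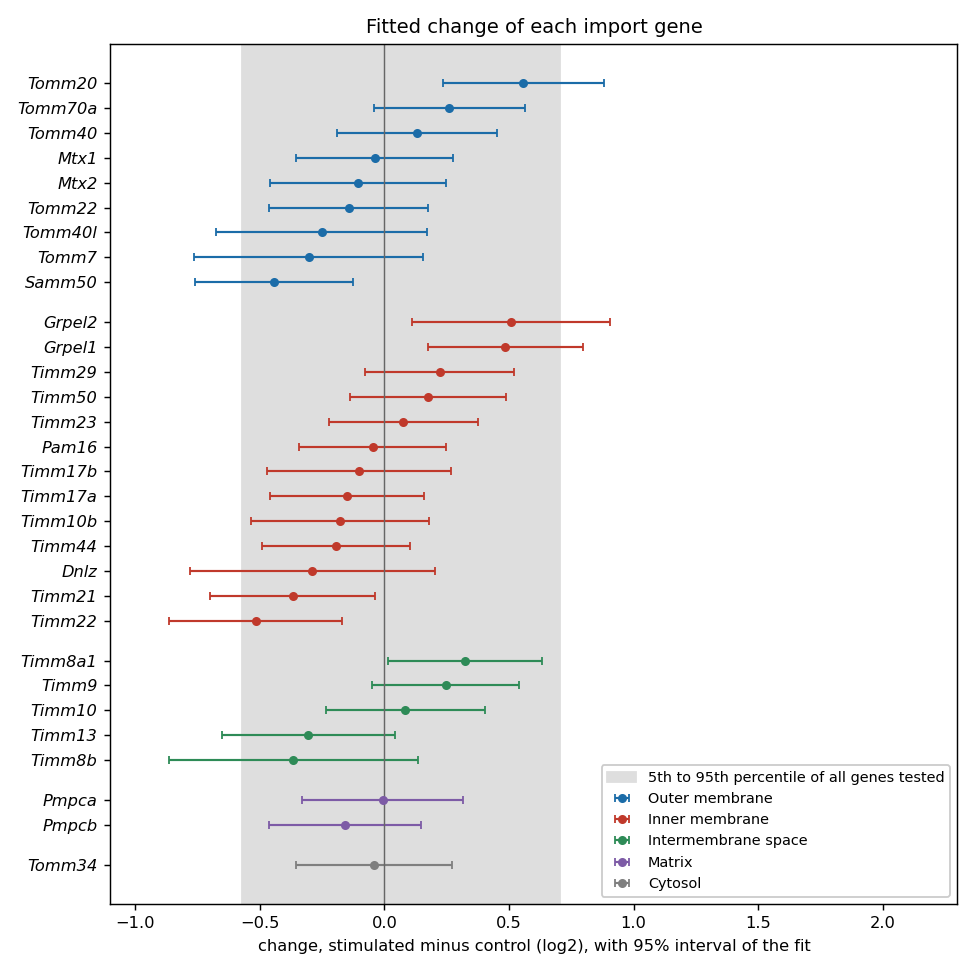
Fitted change of each tested import gene, stimulated minus control in log2 units, with its 95% interval and coloured by compartment, over a grey band from the 5th to the 95th percentile of all genes tested. All 30 points lie within the band, from -0.52 for Timm22 to 0.56 for Tomm20, and 7 intervals leave out 0.

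The outer and inner membrane genes had similar median changes. The 9 tested outer membrane genes had a median change of -0.11, with 3 above 0 and 6 below, and the 13 inner membrane genes a median of -0.10, with 5 above and 8 below. The medians thus differed by -0.0045, outer minus inner. Between arrays of the same group, the outer minus inner median had an SD of 0.105. This SD is the spread of single arrays and not the error of the difference of -0.0045. Changes of single genes spanned -0.44 to 0.56 in the outer membrane and -0.52 to 0.51 in the inner membrane. The inner class counts the 5 import motor genes, including its highest, Grpel2 and Grpel1. Apart from the motor, its highest change was 0.22, for Timm29. A median without the motor was not taken. On each array, the median deviation from the control mean over outer membrane genes was -0.10 and -0.04 on the stimulated arrays, against 0.08 and -0.08 on the control arrays. Over inner membrane genes it was -0.16 and -0.01 on the stimulated arrays, against -0.01 and 0.01 on the control arrays. No test was run on these medians, which describe chosen genes. Counted over every probe set above the filter, the outer median was -0.02 and the inner -0.17, a difference of 0.15; outer membrane probe sets include the many of Tomm20 and Tomm70a. The median over the 5 small Tim genes of the intermembrane space was 0.08.

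Promoters are shown for Tomm20, Tomm70a and Grpel1, which lay above control, and for Samm50 and Timm22, which lay below it. These are examples picked by direction, and none of their changes was called. Whether the letters searched go with the direction of change was not tested. Each promoter is the stretch of 250 bases just before the annotated start, from RefSeq on build GRCm38.p6. Capitals mark matches, on either strand, to the letters searched: CGCNTGCG for the factor NRF1, a known regulator of nuclear genes for mitochondria, CCGGAAG for ETS factors, CACGTG for the E-box, and the letters AAGATGGC for YY1, TGATGNAA for an ATF4 composite element and TGACGTCA for the cyclic AMP response element.
Tomm20, chr8:126945922-126946171, minus strand: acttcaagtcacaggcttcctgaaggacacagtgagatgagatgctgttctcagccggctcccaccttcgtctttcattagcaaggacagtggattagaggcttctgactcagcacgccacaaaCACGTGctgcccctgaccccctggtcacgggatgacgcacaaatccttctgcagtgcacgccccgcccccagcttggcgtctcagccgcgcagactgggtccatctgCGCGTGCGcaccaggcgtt
Tomm70a, chr16:57121464-57121713, plus strand: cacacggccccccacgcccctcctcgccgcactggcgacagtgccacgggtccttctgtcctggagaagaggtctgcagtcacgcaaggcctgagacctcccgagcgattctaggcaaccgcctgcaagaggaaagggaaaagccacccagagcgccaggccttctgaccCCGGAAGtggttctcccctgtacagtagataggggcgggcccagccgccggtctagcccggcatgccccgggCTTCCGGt
Grpel1, chr5:36464935-36465184, plus strand: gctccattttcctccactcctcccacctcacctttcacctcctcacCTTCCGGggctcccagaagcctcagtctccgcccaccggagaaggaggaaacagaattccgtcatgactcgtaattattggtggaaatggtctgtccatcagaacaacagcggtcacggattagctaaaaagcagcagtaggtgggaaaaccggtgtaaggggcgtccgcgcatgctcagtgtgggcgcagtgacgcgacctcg
Samm50, chr15:84191990-84192239, plus strand: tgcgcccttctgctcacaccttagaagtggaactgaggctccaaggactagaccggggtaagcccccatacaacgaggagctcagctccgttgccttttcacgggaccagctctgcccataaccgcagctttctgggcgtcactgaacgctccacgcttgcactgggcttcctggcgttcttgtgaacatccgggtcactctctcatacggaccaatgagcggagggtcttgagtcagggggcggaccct
Timm22, chr11:76406675-76406924, plus strand: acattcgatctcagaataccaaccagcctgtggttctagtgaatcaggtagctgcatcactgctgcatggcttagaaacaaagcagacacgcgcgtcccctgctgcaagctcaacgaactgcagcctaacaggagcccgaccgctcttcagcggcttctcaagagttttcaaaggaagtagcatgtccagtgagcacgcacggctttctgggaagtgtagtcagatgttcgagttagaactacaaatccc
Tomm20 held an NRF1 match from 19 to 12 bases before its start and an E-box match at 126 to 121. The Tomm70a window held ETS matches at 80 to 74 and 8 to 2 bases before its start, and that of Grpel1 an ETS match at 204 to 198. The Samm50 and Timm22 windows held none of the letters searched. RefSeq windows were found for 28 of the 32 import genes, the others being Grpel2, Timm21, Tomm40l and Tomm7. Of the 28, 13 held the ETS letters, where 9.13% of 17492 promoters of protein-coding genes did. The NRF1 letters stood in 3, Tomm20, Pam16 and Timm13 (9.31% of all promoters), the E-box in 4 (6.64%), and the YY1, ATF4 and cyclic AMP letters in 0 (1.51%, 3.26% and 2.01%). Of the 3 genes with the NRF1 letters, Tomm20 lay above both controls, and Pam16 and Timm13 lay below both. Of the 13 genes with the ETS letters, Grpel1, Tomm70a, Timm23 and Timm29 had both stimulated arrays above both controls. Pmpcb and Tomm22 had both below. The groups overlapped for the rest, except for Timm8a2, which was below the filter. A match describes letters and is no evidence of binding.

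Different probe sets of a gene mostly pointed the same way. Of the 65 probe sets, 59 were above the filter, and 19 genes had more than 1 of these, with changes on both sides of 0 in 4: Tomm20, Grpel2, Pmpcb and Tomm7. Of the 6 Tomm20 probe sets, 4 gave 0.54 to 0.69, with every stimulated array above every control array, while those with the lowest levels, at means of 7.52 and 6.85, gave -0.01 and 0.14. With each of 23284 probe sets fitted on its own, 1 import probe set was called, a Tomm20 probe set at 0.69 ± 0.14 (limma, adjusted p = 0.0494), where 4.85% of all probe sets were called (2.99% higher and 1.86% lower). It carries the suffix that the manufacturer gives to probes that may match other sequences.

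All 4 Tomm70a probe sets above the filter gave values above control, 0.25 to 0.44, and each had both stimulated arrays above both controls. Samm50 gave -0.44 and -0.52 on the probe sets above the filter. The Timm10b probe sets gave -0.18, -0.34 and -0.49, so that the one used for the gene was the nearest to 0. For Tomm40l, the probe set not used had a mean level of 7.33 and gave -0.96 ± 0.26 (limma, adjusted p = 0.0932), the lowest of any import probe set. It read 6.45 and 7.25 on the stimulated arrays, against 7.90 and 7.71 on the control arrays. The second Timm9 probe set gave 0.70 at a mean level of 4.61, just above the filter. It read 5.18 and 4.74 on the stimulated arrays, against 4.17 and 4.35 on the control arrays. Both controls were below the filter level, so it passed only through the stimulated arrays and its direction adds little.

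**Figure D3:**
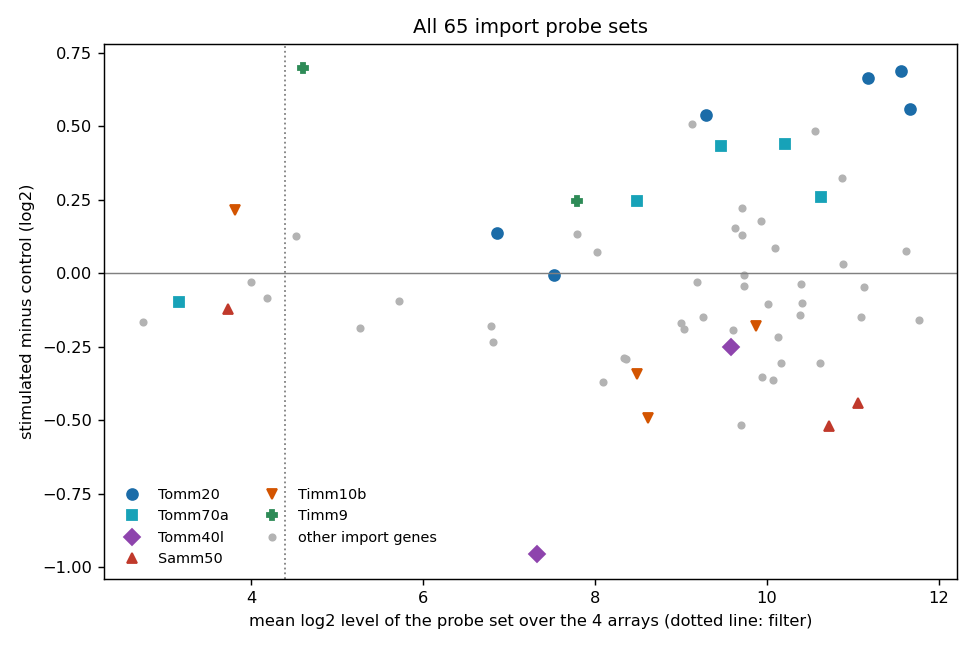
Change of every import probe set, stimulated minus control in log2 units, against its mean log2 level over the 4 arrays, with 6 genes marked by symbol and the filter level as a dotted line. The Tomm20 probe sets with the highest levels lie at 0.54 to 0.69, the Tomm70a probe sets at 0.25 to 0.44 above the filter, and the lowest point is the Tomm40l probe set at -0.96.

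The stimulated arrays differed between themselves for several of these genes. Stimulated 2 read higher than stimulated 1 for 20 of the 30 genes, with a median difference of 0.11, beside a median of -0.02 over all genes tested. This was not particular to import genes. In the complex I list described below, stimulated 2 was higher for 32 of 36 genes, with a median of 0.15. Among mitochondrial ribosomal proteins it was higher for 43 of 76, with a median of 0.04. Timm8b, Dnlz, Tomm7 and Tomm40l had the widest gaps, with SDs of 0.38, 0.37, 0.36 and 0.26 over the stimulated arrays, against 0.15, 0.14, 0.04 and 0.17 over the control arrays. In each of them stimulated 1 was the lowest of the 4 arrays, and without it the changes were -0.097 for Timm8b, -0.027 for Dnlz, -0.053 for Tomm7 and -0.070 for Tomm40l. The control arrays had a median difference of -0.01 over the import genes, with control 2 higher for 15.

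Beyond the members, 25 of 27 other genes of mitochondrial import and protein handling, listed from general knowledge, had a probe set and were tested. Of these 1 was called higher and 0 lower, with a median change of -0.05, where 3.91% of all genes were called higher and 1.62% lower. The called gene was Hspe1, the cochaperonin of the matrix, at 12.36 and 12.58 on the stimulated arrays against 11.60 and 11.35 on the control arrays (1.00 ± 0.15, limma, adjusted p = 0.0300, and 1.02 on its other probe set). Hspa9, the mitochondrial Hsp70 on which the Grpel proteins act, read 12.05 and 11.91 on the stimulated arrays, against 11.43 and 11.42 on the control arrays, without overlap. Its change was 0.55 ± 0.12 (limma, adjusted p = 0.0598). Further Hspa9 probe sets gave -0.22 to 0.78. The matrix proteases Lonp1 and Clpp gave 0.65 ± 0.20 and 0.54 ± 0.14, also without overlap and not called. Mipep, a peptidase that trims some precursors further, gave -0.59 ± 0.15 (limma, adjusted p = 0.0770), and Romo1, a small protein of the TIM23 complex, -0.49 ± 0.21.

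Other mitochondrial gene sets, chosen by symbol, are set beside the import genes only to place their values. The complex I list also took in Ndufa4 (-0.28) and Ndufa4l2 (0.20) by symbol, which are not complex I subunits. Of 36 tested genes on this list for respiratory complex I, 34 had a change below 0, with a median of -0.30, and stimulated arrays lay below both controls for 27. For the 30 import genes these counts were 19 below 0 and 10 below both controls, with the median of -0.07. Of all genes tested, 49.1% had a change above 0 and 27.7% lay below both controls. The 76 genes of the mitochondrial ribosome had a median of -0.10, with 44 below 0. Calls numbered 0 higher and 1 lower in the complex I list and 1 higher and 0 lower in the mitochondrial ribosome. Over all genes, 3.91% were called higher and 1.62% lower. The differences between these lists were not tested.

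**Figure D4:**
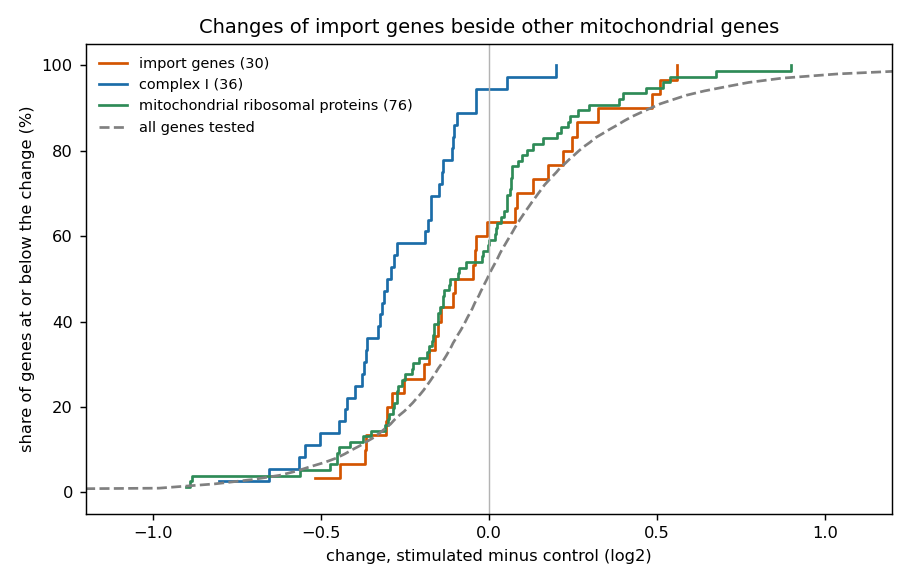
Share of genes at or below each change, stimulated minus control in log2 units, for the 30 import genes, 36 genes of the complex I list and 76 mitochondrial ribosomal protein genes as stepped lines, and for all genes tested as a dashed line. The complex I line lies left of the others around its median of -0.30. Its lowest change is -0.80, and the lines of the mitochondrial ribosome, to -0.90, and of all genes reach lower. The import line has a median of -0.07 and ends at -0.52 and 0.56.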

How the data were processed

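The deposited table held log2 values for 45101 probe sets, which the authors made with RMA, per the submitters' processing notes. RMA corrects background, normalizes between arrays and summarises each probe set, and it compresses differences near both ends of the range (2.34 to 14.29 here). Its version and settings are not given in the sources used here. Precision is limited by having 2 arrays per group.

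Names came from the platform annotation: 34945 probe sets had 1 gene symbol and 932 had several, which were left out. All 32 import symbols matched RefSeq (GRCm38.p6). Each gene took its probe set of highest mean, and genes whose mean reached the 40th percentile, 4.39, were tested with limma 3.58.1 in R 4.3.3 (lmFit, eBayes, two-sided, Benjamini-Hochberg). Levels are per array and errors are the fit's SE. The script was tested on simulated data. With 2 arrays a group, exact permutation cannot reach a p below 0.333 and was not used. Any import gene could be named. The members and lists were chosen with earlier results of these data known. Alternatives changed the filter, probe set, scaling, variance model, replicate block and arrays.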

Additional observations from a re-analysis of the deposited data

How the results depend on the processing

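The count of import genes called lower was 0 under every alternative run, and the count called higher was 0 or 1. It was 1, Tomm20 each time, with every probe set fitted on its own, with a variance that depends on the level (plain and robust), and with the replicate block (limma, adjusted p = 0.0493). Of the 30 tested genes, 25 kept their sign under every alternative fitted per gene. With 1 array left out in turn, the changes ran from -0.24 to 0.028 for Mtx2, -0.099 to 0.085 for Pmpca, -0.12 to 0.037 for Tomm34, -0.13 to 0.050 for Mtx1 and -0.23 to 0.031 for Timm17b, the 5 that crossed 0. Wider ranges that kept their sign were those of Tomm7 (-0.56 to -0.053), Dnlz (-0.55 to -0.027), Timm8b (-0.63 to -0.097) and Tomm40l (-0.43 to -0.070), each nearest 0 without stimulated 1. The inner membrane median ran from -0.16 to -0.011, its upper end being that without stimulated 1. Outer minus inner was 0.15 with every probe set fitted on its own. Over all genes, 722 were called, against 1130 probe sets fitted on their own, 1345 with the replicate block and 20 to 113 with 1 array left out, so fewer arrays gave fewer calls. Whether the replicate numbers pair the samples is not settled: the titles number only the stimulated samples, while the protocol of 1 control mentions a second experimental sample, which is the number it has here. The difference between arrays 2 and 1 correlated at 0.33 across genes between the groups. Leaving out probe sets that may match other sequences was chosen after seeing the data and gave 0 import calls. Probe sets near the filter, such as the second one of Timm9, are limited by signal over background.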
